A study of Mus musculus with 9 samples.

Results

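The genes of the respiratory chain were compared between enamel organs of mice raised under early life adversity (ELA) and of control mice. The set was taken by symbol and biotype: protein-coding genes whose names begin with Ndufa, Ndufb, Ndufc, Ndufs or Ndufv and a number, with Uqcr, with Cox4 to Cox8 followed by the letter a, b or c, or with Atp5, and the mt-Nd, mt-Co, mt-Cytb and mt-Atp genes. It held 92 of the 54532 genes of the table, 79 encoded in the nucleus and 13 encoded in mitochondria. The marker Cox4i1, the isoform Cox4i2, cytochrome c1 (Cyc1) and the acyl carrier subunit Ndufab1 belong to the chain but their symbols lie outside this pattern, so they are given beside the set. The genes were chosen by name and not by their values.

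The respiratory chain sits in the inner mitochondrial membrane. Complex I (NADH dehydrogenase), complex III (the cytochrome bc1 complex) and complex IV (cytochrome c oxidase) pass electrons to oxygen and pump protons, and complex V (ATP synthase) uses the proton gradient to make ATP. Most subunits are encoded in the nucleus, translated in the cytosol and imported, while the mitochondrial genome encodes a small set of membrane subunits that are transcribed from both strands as long precursors and cut into single RNAs. Ameloblasts, the enamel-forming cells of the enamel organ, are rich in mitochondria while they move mineral ions.

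RNA came from first-molar enamel organs of 9 male pups at postnatal day 12, with 1 library per mouse. The 5 ELA pups had been kept with limited bedding and nesting from postnatal day 2 to 12, and the 4 control pups had not. The study left its lightest ELA mice out of the analyses that followed imaging. It calls the controls weight-matched, but the sequenced ELA pups had a lower mean body weight. The part of body weight in the results was not tested. All pups, controls included, were Crh-IRES-Cre; Ai14 tdTomato offspring on a C57BL/6 background, and the labels say nothing of where the reporter was active in the tooth. Poly(A) RNA was captured, and sequencing and read processing were done by a company. Each mouse is called by its sample title, with a first letter of t in the ELA group and of c in the control group. The number that follows in the title has no stated meaning, and no such number occurs in both groups, so its effect and that of ELA cannot be told apart. Each p-value measures the spread between these mice. They were treated as independent, but the labels do not say whether those with equal title numbers were. For quantitative PCR the study used 4 control and 5 ELA males from 2 litters per group, and it gives no litters for the sequenced pups. If mice with equal title numbers were littermates, the p-values and SEs would rest on fewer independent units.

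Levels are given in CPM, the count scaled to a common library size. Single genes have TMM library sizes, while the summed levels of marker lists have plain library totals. Total counts were 18683431 to 20831736 in control and 18056774 to 32110160 in ELA libraries. Amelx, the main enamel matrix protein, was at 8728 ± 533 CPM (SD, n = 4) in control and 25789 ± 7106 CPM (SD, n = 5) in ELA, and the 6 enamel matrix genes Ambn, Amelx, Enam, Odam, Amtn and Klk4 took 8.71% to 10.4% of the counts in control and 10.6% to 15.8% in ELA libraries, with no overlap. The summed level of the 4 secretory ameloblast markers was 55775 to 64284 CPM in control and 72097 to 122458 CPM in ELA, and that of the 6 maturation ameloblast markers was 33128 to 41370.0 CPM and 25507 to 38967 CPM. Markers of mesenchyme (15188 to 34095 CPM in control, 10789 to 23351 CPM in ELA), osteoclasts (408 to 748 CPM, 196 to 682 CPM) and B lymphocytes (25.1 to 43.6 CPM, 4.51 to 11.5 CPM) had a negative log2 fold change in all of their 6, 5 and 5 genes. All 5 red cell markers had negative fold changes as well, at 361 to 841 CPM in control and 164 to 379.7 CPM in ELA, and pericyte markers were at 557 to 741 CPM and 537 to 818 CPM. The neuron markers summed to 562 CPM in ELA mouse t-203-1-4 and to at most 79.7 CPM in any control mouse. Of tissues that carry muscle isoforms of complex IV, skeletal muscle markers were at 37.0 to 137 CPM in control and 72.4 to 119 CPM in ELA with Tnnc2 at 0 in all mice, heart muscle markers at 0.268 to 1.44 CPM and 1.43 to 9.97 CPM, and brown fat markers at no more than 0.687 CPM. The part of these cell mixtures in the results below was not tested, and in bulk samples fewer cells of a type and less RNA per cell cannot be told apart.

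No gene of the respiratory chain differed between ELA and control at an adjusted p below 0.05. Of the 92 genes, 88 had enough counts to be tested among 15909 genes, 75 nuclear and 13 mitochondrial. In edgeR, 6 of all genes tested were higher (0.0377%) and 4 were lower (0.0251%) in ELA, and none was in the set. The lowest adjusted p of a member was 0.660. At an unadjusted p below 0.05, 3 nuclear genes were on the higher side, where all genes gave 3.56%, and 0 members were on the lower side, where all genes gave 2.89%. DESeq2 put the same number, 3 on the higher side and 0 on the lower side, below that unadjusted p and called 0 members. In all, it called 141 of the 17596 genes to which it gave an adjusted p (0.801%). The 4 genes not tested were the muscle isoform Cox8b (44 counts over all mice), the testis isoforms Cox8c (2 counts) and Cox7b2 (0 counts), and an additional Atp5o identifier (0 counts).

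Most nuclear genes lay on the higher side in ELA by a small amount, and the mitochondrially encoded genes did not. The median log2 fold change of ELA against control was 0.15 over the 75 nuclear genes, -0.049 over the 13 mitochondrial genes and 0.013 over all genes tested. A positive value was found in 69 of 75 nuclear genes (92.0%), in 5 of 13 mitochondrial genes (38.5%) and in 52.6% of all genes. The difference between the medians of the mitochondrial and nuclear genes was -0.20, against a spread between mice of 0.476 (SD) in the difference between both mean levels. In 67 of the 75 nuclear genes and in all 13 mitochondrial genes, the fold change was smaller than the spread between mice of a group (SD of log2 CPM). The median of the nuclear genes was -0.072 with 26 positive values without the 3 ELA mice t-203-1-3, t-203-1-4 and t-203-1-5. Of these, t-203-1-4 lay on the other side. Leaving out single mice, the median was 0.017 with 40 positive values without t-203-1-5, 0.052 without t-203-1-3 and 0.055 without the control mouse c-204-1-1, and it was 0.28 without t-203-1-4, 0.24 without t-205-1-1, and 0.24 without c-204-1-2 or c-202-1-1.

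**Figure D1:**
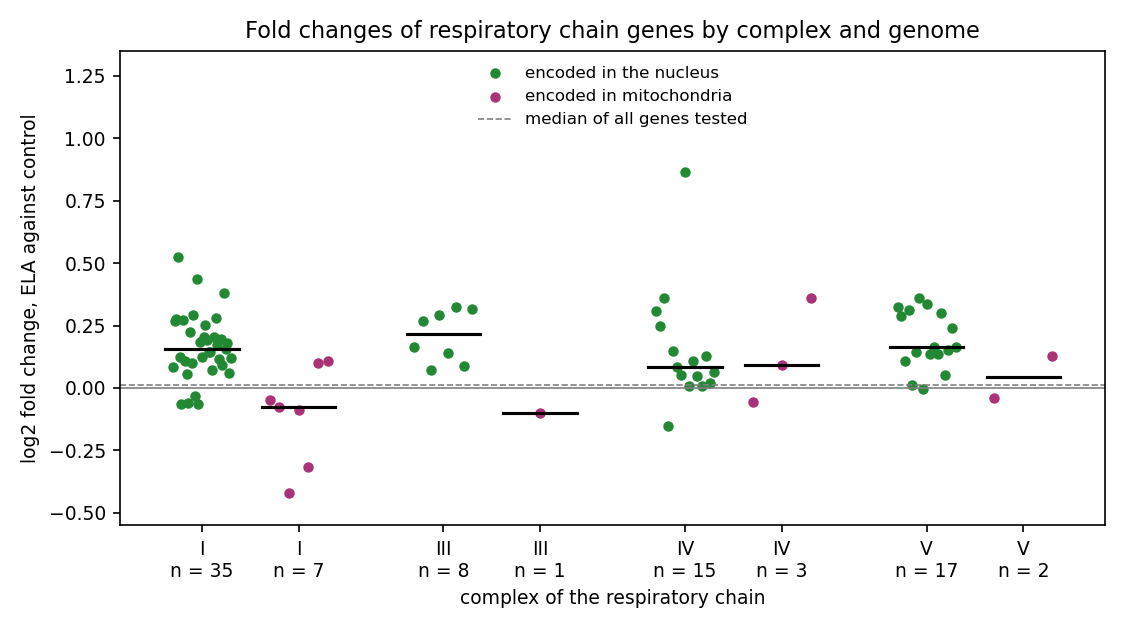
Log2 fold change of ELA against control (vertical axis) for the 88 respiratory chain genes tested, by complex (horizontal axis) and by genome (colour), with a point per gene and a black bar at each median. The nuclear medians are 0.15, 0.22, 0.083 and 0.16 for complexes I, III, IV and V, and the dashed line marks the median of all genes tested at 0.013. None of the points passed an adjusted p of 0.05.

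In counts, the chain was dominated by the mitochondrial genes. The 13 mitochondrial genes took 4.64, 4.55, 5.11 and 3.18% of all counts in control mice c-204-1-1, c-204-1-2, c-202-1-1 and c-202-1-2, and 5.66, 4.21, 3.89, 3.44 and 3.04% in ELA mice t-205-1-1, t-205-1-3, t-203-1-3, t-203-1-4 and t-203-1-5, and this order of mice holds for all values per mouse below. The means were 4.37% ± 0.8286 (SD, n = 4) and 4.05% ± 1.01 (SD, n = 5), and the groups overlapped widely. Both the highest share, in t-205-1-1, and the lowest, in t-203-1-5, were in ELA mice. The 79 nuclear genes took 1.18% ± 0.156 (SD, n = 4) of the counts in control and 1.30% ± 0.343 (SD, n = 5) in ELA mice. The ratio of mitochondrial to nuclear counts of the chain ran from 2.73 to 4.83 in control and from 1.78 to 5.83 in ELA mice, so the ELA mice spanned the whole control range.

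The mitochondrial genes fell into 2 sets by level. Levels of genes are compared here as CPM per kb of gene, with plain library totals. The whole gene length is used, including stretches with a nuclear copy, which are described below. mt-Co1, the catalytic subunit of complex IV, was at 10161, mt-Cytb, the cytochrome b of complex III, at 7344, and mt-Nd1, mt-Nd2, mt-Nd4, mt-Nd5 and mt-Nd6 of complex I at 2011 to 5501 (means of 9 mice). The other 6 genes, mt-Co2, mt-Atp8, mt-Atp6, mt-Co3, mt-Nd3 and mt-Nd4l, were at 4.41 to 62.5. These 6 genes lie side by side between mt-Co1 and mt-Nd4, and they gave 0.196% to 0.559% of the counts of the 13 genes in each mouse although they hold 26.3% of their bases. All 9 mice had this gap, controls and ELA alike.

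Of the 6 genes with low counts, 5 have a nearly complete copy among the annotated transcripts of the nuclear genome. On GRCm38 (GENCODE M21), a run of unprocessed pseudogenes on the minus strand of chromosome 1, from Gm28439 (chr1:24611535-24612410) to Gm29216 (chr1:24615706-24616197), repeats most of this stretch. To measure this, every 100-base window of each mitochondrial gene was searched for an exact match in the nuclear transcripts of the annotation. Matches were found for 99.5% of the windows of mt-Co2, 99.5% of mt-Atp6, 99.9% of mt-Co3, 97.6% of mt-Nd3 and 98.5% of mt-Nd4l, against 60.8% of mt-Nd4, 30.8% of mt-Co1, 3.19% of mt-Nd2 and 0% of mt-Nd1, mt-Nd5, mt-Nd6 and mt-Cytb. mt-Atp8 had 0%. It follows mt-Co2 and overlaps the start of mt-Atp6 on the same strand (MT:7766-7969 and MT:7927-8607). Reads in that overlap could belong to either gene. The copies of mt-Co2 and mt-Atp6 are neighbours in that run (Gm28661, chr1:24614885-24615565, and Gm10925, chr1:24613974-24614651). Only annotated transcripts were searched, so a copy outside them, such as one of mt-Atp8 in the bases between these neighbours, would not be found. A read from a window with an exact copy has more than 1 place to align, and no source used here says how such reads were counted.

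The sequences show how close the copies are. mt-Nd4l, a membrane subunit of complex I, is printed over the 294 bases it shares with Gm10222 (MT:9877-10170, plus strand, and chr1:24612407-24612700, minus strand, GRCm38), and these differ at 0 positions, so 1 line stands for both. mt-Nd2, a membrane subunit of complex I with high counts, is printed with a less similar copy, Gm13339 (MT:4442-4591, plus strand, and chr2:22590384-22590533, minus strand), with the 4 bases that differ in capitals. Over its whole aligned length of 510 bases, that copy differed at 17 positions (96.7% identity).
mt-Nd4l and Gm10222: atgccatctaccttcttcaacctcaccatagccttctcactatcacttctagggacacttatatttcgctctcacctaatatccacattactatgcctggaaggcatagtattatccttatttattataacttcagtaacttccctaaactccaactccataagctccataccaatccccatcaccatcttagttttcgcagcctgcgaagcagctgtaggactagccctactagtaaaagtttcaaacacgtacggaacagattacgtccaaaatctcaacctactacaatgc
mt-Nd2: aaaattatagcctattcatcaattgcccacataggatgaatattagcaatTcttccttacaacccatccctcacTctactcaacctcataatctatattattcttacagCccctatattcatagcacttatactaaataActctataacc
Gm13339: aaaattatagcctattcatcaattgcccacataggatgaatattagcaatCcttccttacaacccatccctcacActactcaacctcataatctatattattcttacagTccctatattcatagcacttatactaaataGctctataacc

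The deposited counts put reads on the copies too. Gm28661, the copy of mt-Co2, had 320 to 2310 counts per mouse against 515 to 2299 for mt-Co2 itself, and Gm10925, the copy of mt-Atp6, had 553 to 1344 counts against 340 to 2047. Gm28439, which repeats part of mt-Nd4, had 197 to 481 counts against 45174 to 90859 for mt-Nd4. With the counts of the copy added, mt-Co2 stood at 103 and mt-Atp6 at 120 CPM per kb, still far under mt-Nd4 at 2366. The values of the 5 genes with a near-identical copy, and their fold changes, are uncertain, because reads could be split between gene and copy or left uncounted. The same holds for the copied parts of mt-Nd4 and mt-Co1, and for mt-Atp8 if it has a copy that is not annotated. How far either took place was not tested.

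**Figure D2:**
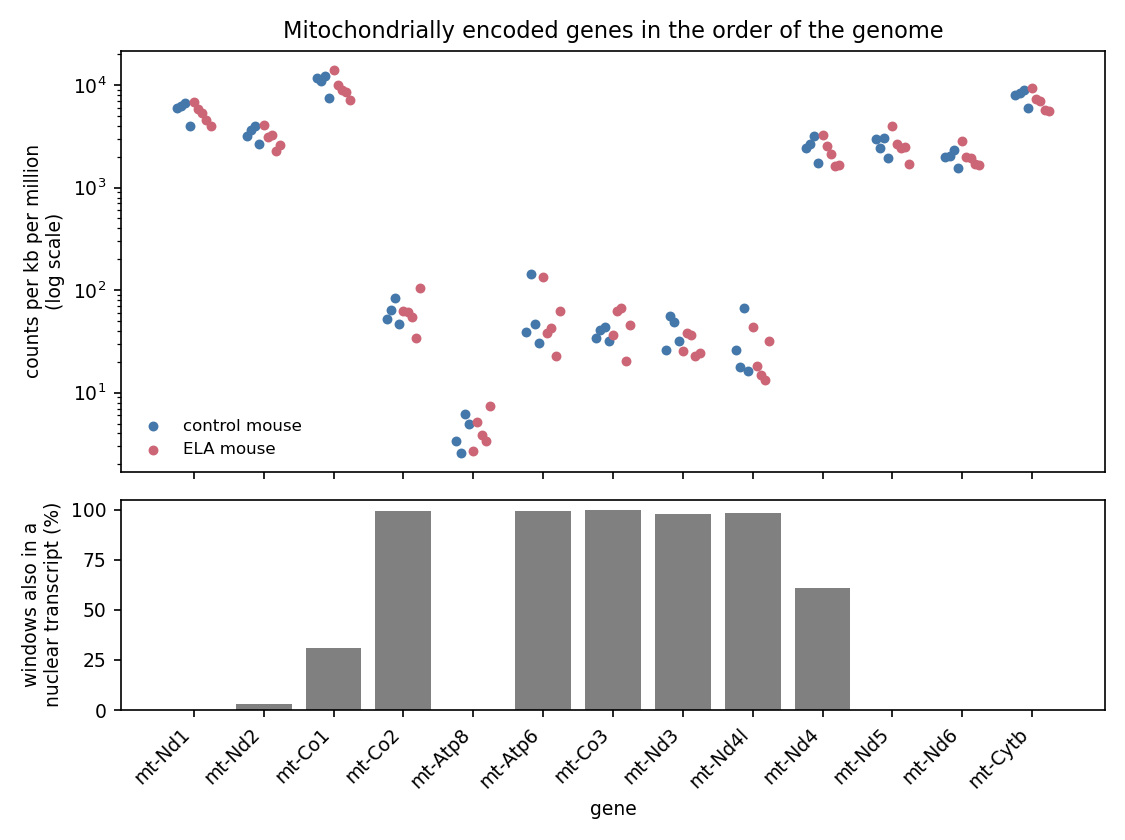
The 13 mitochondrially encoded genes in genome order (horizontal axis), with CPM per kb in each mouse on a log scale (upper panel, blue for 4 control and red for 5 ELA mice) and the percent of their 100-base windows found exactly in a nuclear transcript (lower panel). The 6 genes from mt-Co2 to mt-Nd4l lie at means of 4.41 to 62.5 and the other 7 at 2011 to 10161, and 5 of those 6 have more than 97% of their windows in nuclear transcripts.

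None of the 7 mitochondrial genes with high counts passed the adjusted p. mt-Co1 was at 18031, 16926, 19269.7 and 10483 CPM in control and 23928, 15349, 14763, 12839.8 and 10969.8 CPM in ELA mice. Its lowest control mouse, c-202-1-2, lay under every ELA mouse and its highest ELA mouse, t-205-1-1, lay above every control mouse. Its log2 fold change was -0.055 ± 0.25 (SE), with an edgeR adjusted p of 0.999. mt-Nd1, a core membrane subunit of complex I, was at 5675, 6003, 6552 and 3407 CPM in control and 7248, 5494, 5455, 4176 and 3772 CPM in ELA mice, with the same mice at both ends and a log2 fold change of -0.049 ± 0.24 (SE). Over the 7 genes the log2 fold changes ran from -0.10 (mt-Cytb) to 0.11 (mt-Nd6). mt-Nd6 is the only one read from the other strand, where it overlaps mt-Nd5, and without a known strand setting their reads cannot be told apart at the overlap.

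The 6 genes with low counts scattered more. mt-Co3, a core subunit of complex IV, had the highest log2 fold change of the mitochondrial genes (0.36 ± 0.31 (SE)), and mt-Nd3, a membrane subunit of complex I, had the lowest (-0.42 ± 0.27 (SE)). mt-Nd3 was at 8.91, 19.5, 17.4 and 10.1 CPM in control and 9.68, 13.2, 13.3, 7.61 and 8.49 CPM in ELA mice, and the groups overlapped, with an edgeR adjusted p of 0.901. mt-Atp6, the proton channel subunit of complex V, had the widest spread of all members (SD 1.02 on the log2 scale), with 98.6 CPM in c-204-1-2, a still higher value in t-205-1-1, and 14.9 to 42.4 CPM in the other mice. The remaining fold changes were 0.093 for mt-Co2, 0.13 for mt-Atp8 and -0.32 for mt-Nd4l.

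Complex I had 35 nuclear genes, of which 31 had a positive and 4 a negative log2 fold change (median 0.15). Its 7 nuclear core subunits, which carry the electron path or frame it, were all on the positive side (0.062 to 0.38), and 24 of the 28 accessory subunits were. Ndufb2, an accessory subunit of the membrane arm (chr6:39592574-39603382, plus strand), had the smallest p of the whole set. It was at 8.75, 7.85, 9.41 and 12.0 CPM in control and 15.3, 11.2, 12.1, 13.3 and 12.5 CPM in ELA mice. The groups overlapped by 1 control mouse, c-202-1-2, and the log2 fold change was 0.44 ± 0.17 (SE) with an edgeR adjusted p of 0.66. The gene overlaps Braf and Gm16272 on the other strand, whose reads cannot be told apart from its own without a known strand setting.

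Ndufa10, an accessory subunit of complex I (chr1:92439010-92473860, minus strand), was the 1 member of 88 whose groups did not overlap on the higher side, where all genes gave 1.39%. Its values were 117, 123, 122 and 96.5 CPM in control and 131, 123, 163, 125 and 148 CPM in ELA mice. The lowest ELA and the highest control mouse agreed to 3 digits, so the groups touched. The log2 fold change was 0.27 ± 0.13 (SE) with an edgeR adjusted p of 0.82. No member was without overlap on the lower side, where all genes gave 1.29%. Ndufa11, an accessory subunit of the membrane arm, had a log2 fold change of 0.28 ± 0.15 (SE).

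All 8 nuclear genes of complex III had a positive log2 fold change (0.072 to 0.32, median 0.22). Uqcrc1, a core protein of the complex (chr9:108936633-108949623, plus strand), was at 257, 239.7, 289 and 270.1 CPM in control and 335, 318, 363, 263 and 339 CPM in ELA mice. All but 1 ELA mouse, t-203-1-4, lay above the 4 control mice. Uqcrc1 had a log2 fold change of 0.29 ± 0.13 (SE), with an edgeR adjusted p of 0.759. Uqcrfs1, the Rieske iron-sulfur protein, had 0.32 ± 0.22 (SE), Uqcrq, a small subunit, 0.32 ± 0.29 (SE), and Uqcrc2, the partner of Uqcrc1, 0.14 ± 0.15 (SE). Cyc1, the cytochrome c1 of the same complex, was at 162 ± 20.1 CPM (SD, n = 4) in control and 213 ± 42.5 CPM (SD, n = 5) in ELA mice, with a log2 fold change of 0.40 ± 0.16 (SE) and an edgeR adjusted p of 0.701.

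Complex IV had 15 nuclear genes tested, 14 of them with a positive log2 fold change (median 0.083). Cox6a1, the common isoform of subunit VIa (chr5:115345642-115348981, minus strand), was at 269.7, 367, 392 and 361 CPM in control and 323, 378, 589.6, 283 and 653 CPM in ELA mice. The ELA mice split, with t-203-1-3 and t-203-1-5 above all control mice and the other 3 inside the control range. This gave a log2 fold change of 0.36 ± 0.25 (SE), with an edgeR adjusted p of 0.934. Cox5a, another small nuclear subunit, had a log2 fold change of 0.31 ± 0.22 (SE). The marker Cox4i1, the largest nuclear subunit of the complex, was at 344, 441, 450.1 and 396 CPM in control and 356, 435, 611, 327 and 605 CPM in ELA mice, with a log2 fold change of 0.20 ± 0.21 (SE) and an edgeR adjusted p of 0.995. Here too t-203-1-3 and t-203-1-5 lay above all control mice, while t-203-1-4 lay under them.

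Isoforms of complex IV known from muscle, testis or low oxygen had lower levels than their common forms, down to 0 counts. In CPM per kb (mean of 9 mice), Cox6a1 was at 571 and the muscle form Cox6a2 at 17.1. Cox7a2 and Cox7a2l, which helps to join complexes III and IV, were at 152 and 157 and the muscle form Cox7a1 at 17.4. Cox8a was at 595 and the muscle form Cox8b at 0.596, and Ndufa4, a complex IV subunit despite its name, was at 121 and its paralog Ndufa4l2 at 10.4. Cox6b2, known as a testis form, was at 49.5 against 292 for Cox6b1, a closer pair than the others. Cox7b was at 149.995, while its testis form Cox7b2 had 0 counts in all mice.

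The highest and the lowest fold change of the nuclear genes were both in muscle isoforms. Cox7a1 was at 4.32, 5.30, 7.80 and 8.25 CPM in control and 3.61, 7.66, 17.8, 5.82 and 23.4 CPM in ELA mice. Only t-203-1-3 and t-203-1-5 lay above the control mice, and t-205-1-1 lay under them. The log2 fold change was 0.86 ± 0.50 (SE) with an edgeR adjusted p of 0.879, and it was -0.19 without the mice t-203-1-3, t-203-1-4 and t-203-1-5. Cox6a2 was at 12.3, 13.7, 11.1 and 12.0 CPM in control and 12.3, 14.2, 10.6, 6.997 and 11.1 CPM in ELA mice, with a log2 fold change of -0.15 ± 0.19 (SE). It overlaps Itgad on the other strand. The common forms had 0.0074 (Cox7a2), 0.11 (Cox7a2l), 0.15 (Cox6b1), 0.046 (Cox7b), 0.13 (Cox8a) and 0.019 (Ndufa4), and the forms Cox6b2, Ndufa4l2 and Cox4i2 had 0.083, 0.064 and 0.17.

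Complex V had 17 nuclear genes tested, 16 with a positive log2 fold change (median 0.16). The 5 subunits of its catalytic F1 part were all positive, with a median of 0.29. Atp5a1, the alpha subunit of F1, was at 936, 929, 1116 and 912 CPM in control and 1169.6, 1107, 1406, 1119.5 and 1294 CPM in ELA mice. Only control mouse c-202-1-1 reached the ELA range. The log2 fold change was 0.33 ± 0.14 (SE), with an edgeR adjusted p of 0.712, and among the 88 members it had the smallest spread between mice (SD 0.143 on the log2 scale). Atp5b, the catalytic beta subunit, was at 1393, 1511, 1792 and 1371 CPM in control and 1762, 1659.5, 2196, 1585 and 2063 CPM in ELA mice, which overlapped, with a log2 fold change of 0.29 ± 0.15 (SE). Atp5d, the delta subunit, and Atp5o, which ties F1 to the outer stalk, had 0.31 ± 0.17 (SE) and 0.24 ± 0.17 (SE).

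The 3 genes for the proton-carrying c subunit, which encode the same mature protein, had log2 fold changes on both sides of 0. Atp5g3 had the highest level per kb (153 CPM per kb) and a log2 fold change of 0.34 ± 0.29 (SE). Atp5g2 was at 86.0 CPM per kb, with -0.0034 ± 0.22 (SE). Atp5g1 was at 36.9 CPM per kb, with 0.36 ± 0.29 (SE). The order of these last genes rests on their deposited lengths, 4912 bases for Atp5g1 and 1675 for Atp5g2. Before division by length, Atp5g1 was the higher one, at 157 CPM in control and 201 CPM in ELA mice, against 144 CPM in both groups for Atp5g2. No difference among the 3 was tested, and none of the 3 differed between the groups at an adjusted p below 0.05.

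**Figure D3:**
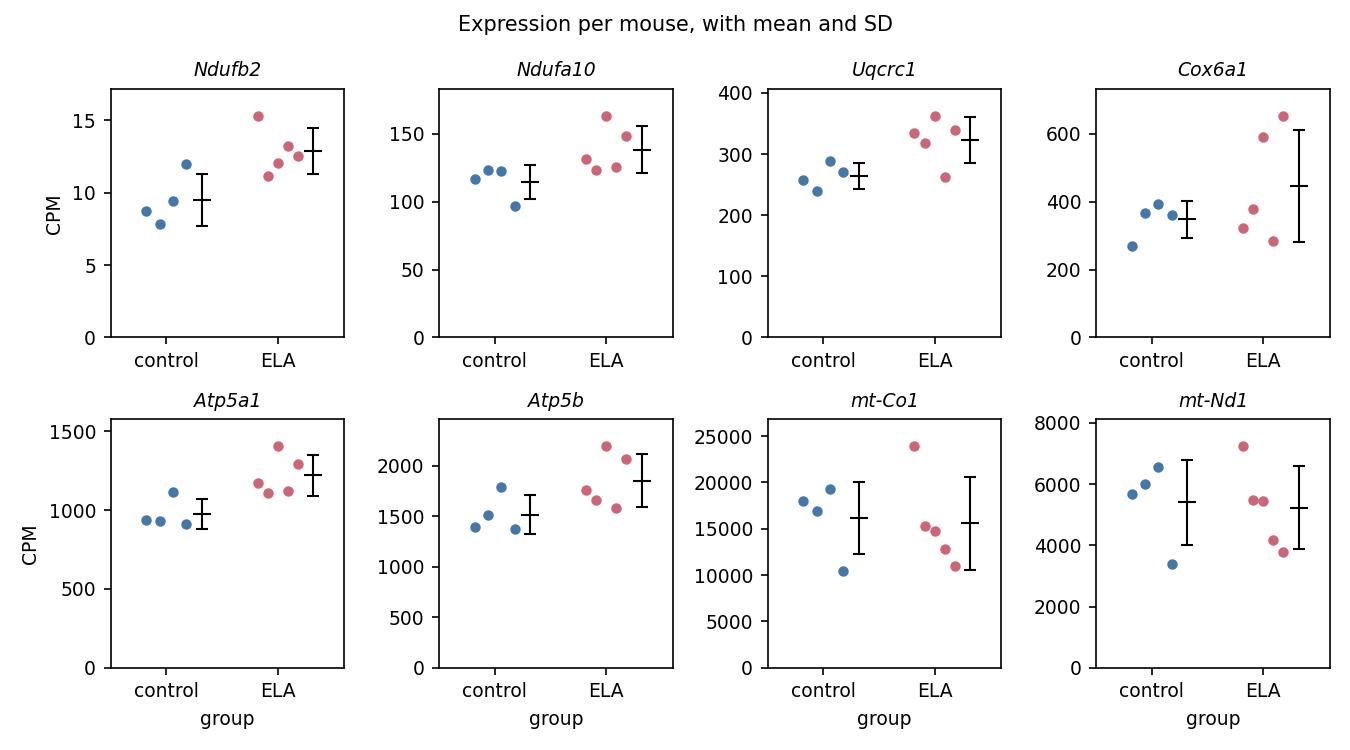
Expression in CPM (vertical axes, from 0) of 8 respiratory chain genes in 4 control (blue) and 5 ELA (red) mice, with a point per mouse and the mean and SD of each group in black. Atp5a1 has means of 973 and 1219 CPM with 1 control mouse in the ELA range, and the ranges of both groups overlap in large part for mt-Co1 and mt-Nd1.

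The nuclear genes moved together from mouse to mouse, within both groups. The mean log2 CPM of the 75 nuclear genes, taken as a deviation from its mean over 9 mice, was -0.415, 0.147, 0.17 and -0.144 in control and -0.346, 0.0877, 0.495, -0.564 and 0.569 in ELA mice. The low mice were c-204-1-1, t-205-1-1 and t-203-1-4, the high mice were t-203-1-3 and t-203-1-5, and the range within ELA exceeded the difference between the group means, which was 0.11. In 4 complexes alike, t-203-1-4 was the lowest mouse (-0.50 to -0.69). The 7 mitochondrial genes with high counts had another order, at 0.106, 0.142, 0.348 and -0.508 in control and 0.608, 0.0314, 0.0328, -0.342 and -0.417 in ELA mice, with t-205-1-1 at the top and c-202-1-2 at the bottom.

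Other short mRNAs had a similar order of mice. The 75 protein-coding genes outside the set with a length under 1000 bases and a mean log2 CPM above 5 deviated by -0.227, 0.315, 0.211 and -0.0559 in control and by -0.426, 0.0548, 0.308, -0.671 and 0.49 in ELA mice. Pearson's r between both means was 0.946 and Spearman's rho 0.933 over 9 mice. Without the 2 mice farthest from the median of the short mRNAs, t-203-1-4 and t-205-1-1, r was 0.945, and it was 0.972 within control and 0.994 within ELA mice, which are too few for more than a description. Both means come from the same libraries and share their depth and RNA quality, so no p is given. The 7 mitochondrial genes gave r = -0.089 and rho = -0.083 with the short mRNAs. No measure of RNA integrity was used here, and its part in this order was not tested.

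**Figure D4:**
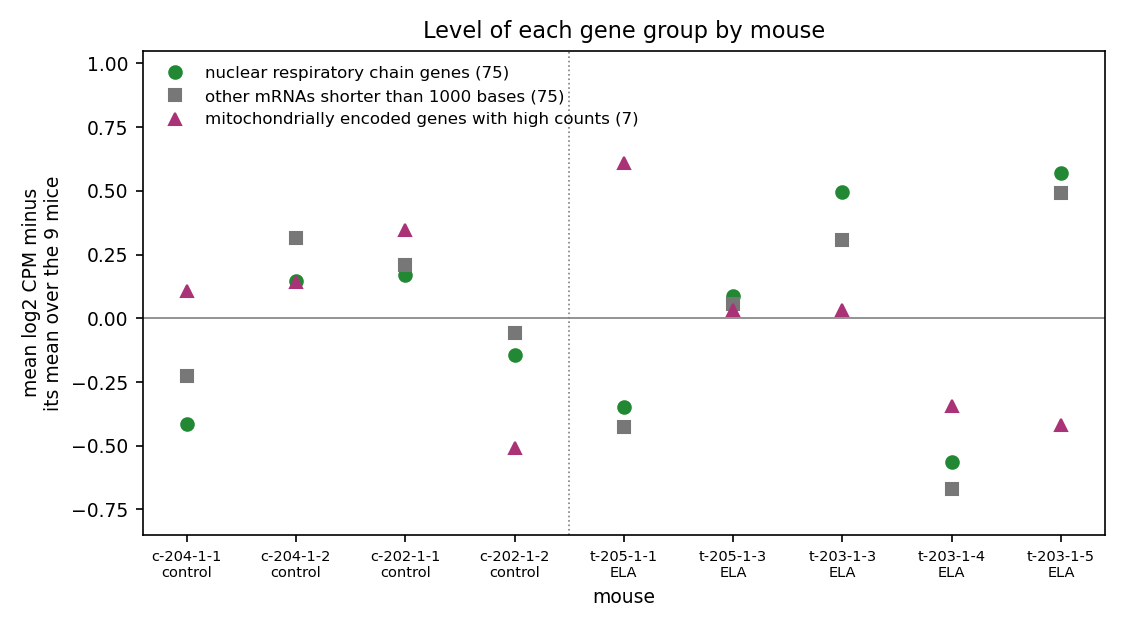
Mean log2 CPM of 3 gene groups in each mouse (horizontal axis, control left and ELA right of the dotted line), as the deviation from the mean of that gene group over 9 mice. Nuclear respiratory chain genes (circles) and other short mRNAs (squares) are both lowest in t-203-1-4, at -0.56 and -0.67, and highest in t-203-1-5, at 0.57 and 0.49, while the 7 mitochondrial genes (triangles) are highest in t-205-1-1 at 0.61.

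The spread between mice was larger in short genes of the chain. Over the 75 nuclear genes, the SD of log2 CPM within groups was lower at greater gene length in the deposited table (Spearman's rho -0.60, across genes, which are not independent replicates). Over 5636 other protein-coding genes with a mean log2 CPM above 5 rho was 0.027, but 3706 of these were in the band of 4000 bases and over. The median SD was 0.575 for the 20 genes under 1000 bases, 0.443 for 29 genes of 1000 to 2000 bases, 0.344 for 17 genes of 2000 to 4000 bases and 0.245 for the 9 longer ones. Other protein-coding genes with a mean log2 CPM above 5 had a median SD of 0.428, 0.310, 0.210 and 0.228 in the same bands. There too it was highest in the shortest band. That cut was not applied to the nuclear genes, so the levels were not matched. Ndufa1, an accessory subunit of complex I with a length of 419 bases, had the widest spread of the nuclear genes (SD 1.00), at 34.1, 89.6, 89.6 and 71.0 CPM in control and 28.7, 83.7, 107, 20.9 and 136 CPM in ELA mice. It ranged 6.47-fold between t-203-1-4 and t-203-1-5, both ELA mice, and its log2 fold change between the groups was 0.083 ± 0.53 (SE). Ndufa1 was named after its values were seen.

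**Figure D5:**
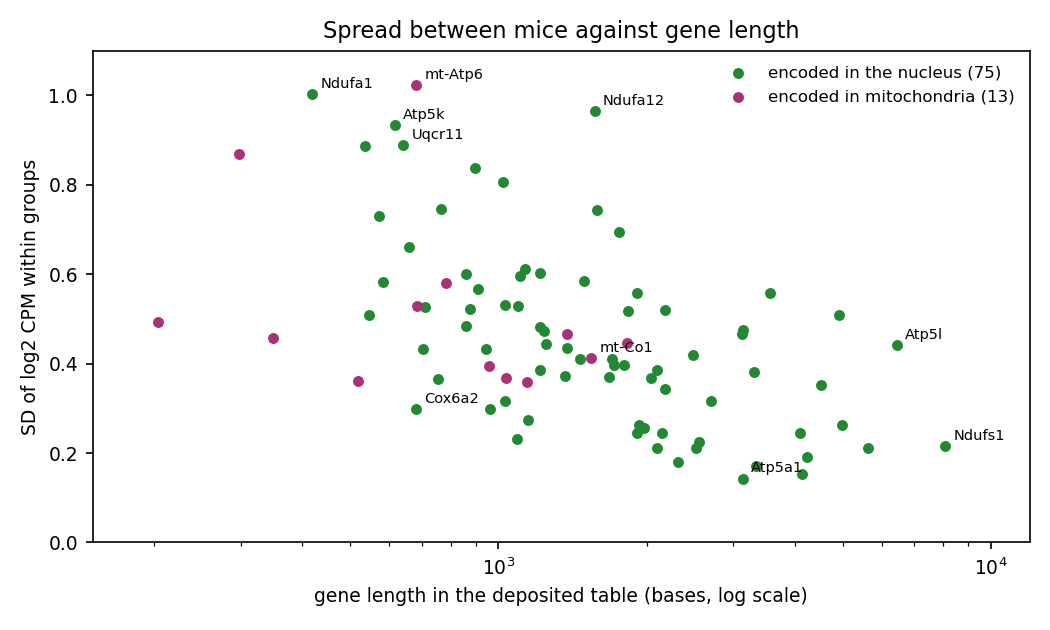
SD of log2 CPM within groups (vertical axis) against gene length in the deposited table (horizontal axis, log scale), with a point per respiratory chain gene. Nuclear genes (green) run from 1.00 at Ndufa1 to 0.143 at Atp5a1, and mitochondrial genes (magenta) from 0.359 to 1.02.

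Nuclear genes of all length bands were on the higher side, while other genes of the same length bands were not to that extent. The bands use the deposited gene lengths, which are not measured mRNA lengths, and the longest band holds Atp5l (6443 bases) and Atp5g1 (4912 bases). They therefore do not compare long with short mRNAs. The median log2 fold change of the nuclear genes was 0.14, 0.14, 0.17 and 0.25 from the shortest to the longest band. It was -0.035, -0.022, 0.0011 and 0.043 in the other genes above the level cut, which were not matched in level. Cytosolic ribosomal proteins, with a median deposited length of 1730 bases, had a median log2 fold change of -0.13 with 11 of 82 genes positive. Mitochondrial ribosomal proteins had one of 0.040 with 47 of 77. When the level of the other short mRNAs was added to the edgeR fit as a covariate, an alternative chosen after seeing the data, 74 of 75 nuclear genes had a positive log2 fold change (51% of all genes did) and the median was 0.21. In that fit 28 nuclear genes had an unadjusted p below 0.05 on the higher side, where all genes gave 4.64%, and 0 members passed the adjusted p (0.0754% of all genes did), the lowest being 0.297. The 13 mitochondrial genes had a median of -0.060 in that fit and 0 of them had an unadjusted p below 0.05. The covariate was itself lower in ELA than in control mice (by 0.11 on average) and followed the nuclear mean from mouse to mouse (r = 0.946). Its 75 genes included Amelx (log2 fold change 1.56) and the red cell gene Hbb-bs (-1.11). Adjusting for such a level raises the fold changes of all genes that follow it, so the 74 and 28 genes are not separate results.

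The promoters of the nuclear genes were searched for motifs of known regulators of respiratory genes. NRF1 (nuclear respiratory factor 1), ETS factors such as GABP, and YY1 are known to bind promoters of the chain. In RefSeq promoters (250 bases before to 50 after the gene start, GRCm38.p6), which matched 65 nuclear gene symbols, GCGCATGC, or GCGCA and GCGC with any base between them (NRF1), was found in 17 (26.2%), against 13.6% of 10907 tested protein-coding genes and 6.90% of all 27025 genes. CCGGAAG (ETS) was in 14 (21.5%, against 18.6% and 9.93%), and ATGGCGG (YY1) in 10 (15.4%, against 8.69% and 4.69%). At least 1 of the motifs was in 33 of the 65 promoters, so the remaining ones held none, among them those of Ndufb2, Ndufa10, Uqcrfs1, Cox5a, Cox7a1 and Atp5g1. Both strands were searched, the letters of different motifs may overlap, and a match is only a run of letters. Cox6a1, Atp5g2 and Ndufa11 are shown as examples of promoters with a match, picked for that, and had log2 fold changes of 0.36, -0.0034 and 0.28. They are printed with 150 bases before the RefSeq start, 5′ to 3′ on the gene's strand, and matches in capitals. That start can differ from the deposited gene span. The end of the Cox6a1 stretch, with its ETS match, lies inside the deposited span (chr5:115345642-115348981). The whole Atp5g2 stretch lies inside that of its gene (chr15:102662864-102672352). The positions are chr5:115348959-115349108 (minus strand), chr15:102671048-102671197 (minus strand) and chr17:56717612-56717761 (plus strand).
Cox6a1: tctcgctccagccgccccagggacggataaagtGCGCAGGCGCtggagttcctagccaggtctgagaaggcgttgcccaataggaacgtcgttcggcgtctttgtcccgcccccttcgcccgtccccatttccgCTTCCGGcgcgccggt
Atp5g2: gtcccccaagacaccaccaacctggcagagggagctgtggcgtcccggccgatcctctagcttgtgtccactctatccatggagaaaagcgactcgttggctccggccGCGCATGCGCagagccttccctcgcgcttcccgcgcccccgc
Ndufa11: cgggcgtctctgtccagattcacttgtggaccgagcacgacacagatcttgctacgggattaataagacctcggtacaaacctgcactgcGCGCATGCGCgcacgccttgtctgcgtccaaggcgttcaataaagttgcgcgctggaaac

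All 3 hold the NRF1 match they were picked for, and that of Cox6a1 also holds an ETS match on the other strand, near the start. Genes with no promoter entry matched included Atp5a1, Cox6c, Uqcrc2, Uqcrq, Ndufs1, Uqcrb, Atp5mpl, Ndufa2, Ndufb9, Cox6a2, Ndufa4l2 and Cox8c.

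Genes that work with the chain were also on the higher side in parts, and none of them passed an adjusted p of 0.05. All 4 genes of complex II (succinate dehydrogenase, encoded in the nucleus alone) had a positive log2 fold change, with a median of 0.28. Sdhb, its iron-sulfur subunit, was at 88.4, 104, 112 and 100.1 CPM in control and 119.5, 123, 153, 110.5 and 156 CPM in ELA mice, with 0.39 ± 0.14 (SE) and an edgeR adjusted p of 0.613. Sdha, its flavoprotein, had 0.33 ± 0.13 (SE). Cytochrome c (Cycs), the electron carrier between complexes III and IV, had 0.26 ± 0.23 (SE), and Ndufab1 had 0.31 ± 0.20 (SE). Etfdh, which feeds electrons from fatty acid oxidation into the chain, had 0.37 ± 0.14 (SE) in a list of 8 tested genes with 6 positive, in which Sqor, a sulfide oxidase, had -0.22 ± 0.24 (SE). Of 5 tested genes for ADP/ATP and phosphate carriers and the ATP synthase inhibitor, 4 were positive, with 0.26 ± 0.19 (SE) for the phosphate carrier Slc25a3 and 0.26 ± 0.20 (SE) for the ADP/ATP carrier Slc25a4.

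Assembly factors of the complexes were split evenly. Of 46 tested, 25 had a positive and 21 a negative log2 fold change (median 0.016), and the smallest unadjusted p values were those of Ecsit (0.24 ± 0.12 (SE)) and Cox10 (0.24 ± 0.15 (SE)), with 0 below 0.05. The genes that copy and transcribe mitochondrial DNA leaned to the lower side, with 5 of 18 positive and a median of -0.15. Tfb2m, which starts mitochondrial transcription, had -0.24 ± 0.16 (SE) and Mterf1a, a mitochondrial termination factor, -0.33 ± 0.24 (SE). Mitochondrial RNA processing and stability genes were positive in 15 of 19. Lrpprc, which stabilizes mitochondrial mRNAs, was at 57.9, 51.0, 58.1 and 57.0 CPM in control and 88.8, 68.8, 78.3, 96.6 and 57.1 CPM in ELA mice. Of the ELA mice, 4 lay above all control mice, and the log2 fold change was 0.48 ± 0.15 (SE) with an edgeR adjusted p of 0.501. Elac2, which cuts mitochondrial tRNAs out of the precursors, had 0.20 ± 0.13 (SE).

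Regulators of respiratory genes had positive log2 fold changes in 9 of 10 tested genes (median 0.12). Ppargc1a, the coactivator PGC-1 alpha, was at 48.3, 38.6, 41.5 and 31.4 CPM in control and 98.3, 43.2, 76.2, 78.6 and 44.1 CPM in ELA mice. The ELA mice t-205-1-1, t-203-1-3 and t-203-1-4 lay above all control mice and the other 2 inside the control range. The log2 fold change was 0.77 ± 0.25 (SE), with an edgeR adjusted p of 0.516. Of those 3 mice, t-205-1-1 and t-203-1-4 were among the lowest for the nuclear genes of the chain and t-203-1-3 among the highest. Esrrg, an estrogen-related receptor, was at 8.22 CPM in t-203-1-4, the mouse with the high neuron markers, and at no more than 1.48 CPM in the others, with a log2 fold change of 2.47 ± 0.96 (SE). The RNAs Neat1 and Malat1, which are kept in the nucleus, had -0.50 ± 0.48 (SE) and -0.20 ± 0.35 (SE).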

How the data were processed

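For 9 poly(A) RNA libraries the authors deposited raw counts of reads per gene, with Ensembl identifiers. CASAVA, HISAT and HISAT2 appear in the submitters' processing notes. No source used here gives the counting program, its strand setting, its treatment of reads with several places to align, or the build. Of the 92 members, 86 have identical coordinates in GENCODE M21, so GRCm38 positions are printed, and 31 overlap a gene on the other strand. Groups were taken from the treatment labels, and 0 columns were left unassigned. All pairs of mice of a group differed by more than sampling noise (chi-square over degrees of freedom, 21.3 or more).

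The counts were tested with edgeR 4.0.16 in R 4.3.3 (filterByExpr with a minimum of 10, TMM, robust glmQLFit, two-sided glmQLFTest, Benjamini-Hochberg over 15909 genes, threshold 0.05), which was checked on simulated counts. DESeq2 1.42.0 (the study's tool, in the version run here) and limma 3.58.1 were alternatives, with other scalings and filters and with mice left out. CPM values of single genes use TMM library sizes, and log2 CPM a prior count of 2. Summed CPM of marker lists use plain totals, and values per kb use plain totals and the deposited gene lengths. Members, lists and tests were chosen with earlier results of these data known. The named genes were all mitochondrial members, the 4 smallest p per complex, the highest and lowest fold change, isoform sets, the 3 markers and the 2 smallest p of each other list. A gene that this rule names is not reported here. The lists of other genes were written from textbook knowledge. In DESeq2, genes without an adjusted p stayed untested.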

Additional observations from a re-analysis of the deposited data

Results flagged for a closer look

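In each group, a mouse was singled out when its gap to the nearest other mouse took an unusually large part of the group's range (Dixon's test at 95%), and 4 of the 108 values examined were. Chance alone flags about 1 in 20. Atp5a1 stood at 1116 CPM in control mouse c-202-1-1, where the other control mice were at 912 to 936 CPM. mt-Nd6 stood at 1642 CPM in ELA mouse t-205-1-1, against 846 to 1063 CPM in the other ELA mice, and this was the mouse with the largest mitochondrial share of counts. Among the nuclear copies of mitochondrial genes, Gm28661 (of mt-Co2) stood at 71.4 CPM in ELA mouse t-203-1-5 against 14.1 to 25.2 CPM, and Gm28438 (of mt-Nd3) at 0.875 CPM in ELA mouse t-203-1-4 against 2.38 to 2.79 CPM. The reasons were not tested.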

How the results depend on the processing

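No member was called under any of the 26 alternatives, and the lowest adjusted p of a member in any of them was 0.297. The number of genes called in all, 10 in edgeR, was 141 in DESeq2, 49 in limma-voom with the title number as a random block, 38 without a filter on low counts, 4 with plain library totals, 3 with counts summed by title number, 1, 4, 0 and 59 without the c-202, t-203, c-204 and t-205 mice, and 0 to 25 with each mouse left out in turn; fewer mice were tested in the latter. The consensus correlation of mice with equal title numbers in the block fit was -0.17. A negative value does not widen the errors, so its 49 calls do not allow for fewer independent units. The median log2 fold change of the nuclear genes was 0.017 to 0.28 with 1 mouse left out and that of the mitochondrial genes -0.22 to 0.067. Of the medians of both gene groups, their difference and the mitochondrial share, only the difference of the medians of mitochondrial and nuclear genes moved by more than the spread between mice, to 0.308 without the t-203 mice, which leaves 2 ELA mice. The difference in the mitochondrial share of counts, -0.322 percentage points, was -0.914 to 0.566 over all alternatives. Nuclear genes with an unadjusted p below 0.05, 3 in edgeR, were 0 without c-204-1-1, without c-204-1-2, without the t-203 or the c-204 mice, with plain library totals or with summed counts, 6 without t-203-1-4 and 28 with the short mRNAs as a covariate. Library sizes without the enamel matrix genes gave a nuclear median of 0.14. No paired analysis was possible because the replicate numbers were given in accession order and no title number occurs in both groups.

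Of 40 named members with a fold change, 15 kept their sign under every alternative, and 932 of 1040 values had the sign of the reported value. The cause was not tested for the others. All log2 fold changes with the other sign belong to genes that were not called. Without the t-203 mice they were mt-Co1 0.279, mt-Cytb 0.179, mt-Nd1 0.236, mt-Nd2 0.181, mt-Nd4 0.311, Atp5g3 -0.072, Cox8a -0.134, Cox6b1 -0.184, Atp5g1 -0.086, Cox7b -0.200, Uqcrq -0.056, Ndufa4 -0.158, Cox7a2 -0.068, Cox5a -0.027, Cox6b2 -0.122, mt-Atp6 0.518, Cox6a2 0.109, Cox7a1 -0.190, mt-Nd4l 0.067, mt-Atp8 -0.063. Without the c-204 mice they were mt-Co1 0.062, mt-Nd1 0.067, Cox7b -0.029, Ndufa4 -0.00387, Atp5g2 0.052, Cox7a2 -0.066, Cox6b2 -0.154, mt-Atp6 0.746, Ndufa4l2 -0.026, mt-Atp8 -0.244, without the t-205 mice mt-Nd5 -0.196, mt-Nd6 -0.124, Atp5g2 0.105, Ndufa4l2 -0.074, and without the c-202 mice mt-Nd4l 0.211. Other tools gave Cox7b -0.027, Ndufa4 -0.015, Cox7a2 -0.018, Ndufa4l2 -0.00884 in limma-voom and Cox7b -0.012, Ndufa4 -0.00363, Cox7a2 -0.017, Ndufa4l2 -0.026 with the block. Other scalings gave Cox7b -0.00809, Ndufa4 -0.036, Cox7a2 -0.053 with plain totals, Cox7a2 -0.011 with upper-quartile factors, Cox7a2 -0.000693 without the enamel matrix genes and Cox7a2 -0.00246 without the mitochondrial chromosome. Summed counts gave Ndufa4 -0.010, Cox7a2 -0.011, mt-Atp6 0.053, the covariate Atp5g2 0.050, mt-Atp6 0.045, no filter Atp5g2 0.00419 and a filter of 1 CPM in 4 libraries Atp5g2 0.0024. With 1 mouse left out, the ranges were mt-Nd5 -0.133 to 0.232, mt-Nd6 -0.083 to 0.218, Atp5g2 -0.179 to 0.113, mt-Atp6 -0.614 to 0.730, Ndufa4l2 -0.134 to 0.260, Cox8a -0.019 to 0.287, Cox7b -0.116 to 0.219, Ndufa4 -0.108 to 0.153, Cox7a2 -0.119 to 0.156, mt-Co1 -0.257 to 0.050, mt-Nd1 -0.215 to 0.056, mt-Nd2 -0.225 to 0.040, mt-Nd4 -0.299 to 0.067, Cox6b1 -0.036 to 0.305, Cox6b2 -0.148 to 0.2504, mt-Co2 -0.143 to 0.296, mt-Atp8 -0.131 to 0.397, mt-Nd4l -0.674 to 0.387. Depth was not the limit for the abundant members, since the spread between mice set their errors, but mt-Atp8 rested on 11 to 49 counts per mouse.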
